A study of Mus musculus with 6 samples.

Results

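The 9 genes described here are nuclear genes for mitochondrial respiration and for the machinery that builds it: Ndufa4, Ndufb6, Ndufaf4, Ndufaf6, Coq3, Stoml2, Tomm5, Mrpl50 and Hint2. They were taken by symbol from the 55357 rows of the hepatic count table, and each symbol matched 1 row. The choice rests on known function and on map position, and it was made with earlier results of these data known. All 9 lie in the first part of chromosome 4 or 6, where coordinates are the same in GRCm38 and GRCm39. The direction of the 9 genes, with a log2 fold change below 0 in 8 and above 0 in 1, is therefore a description and not a test. The libraries came from the livers of 3 ABX mice under short day (SD), with 8 h of light and 16 h of dark, and 3 ABX mice under a normal light-dark cycle (NLD), with equal phases of 12 h. ABX mice are C57BL/6 mice by the labels, C57BL/6N by the methods, whose gut microbiota was perturbed by gentamicin, sulbenicillin, cephalosporin and amphotericin B in the drinking water. Both groups carried this treatment, were housed singly, were fasted before sampling and were sampled in the late morning. Liver libraries of mice without antibiotics were not analysed here, so the comparison shows the photoperiod in ABX mice only. The labels give Day 28 for every library, while the methods describe a longer period, and neither gives the age or sex of the mice.

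Mitochondria make most of the ATP of a hepatocyte by passing electrons along the respiratory complexes of the inner membrane to oxygen. Nearly all proteins of this chain are encoded in the nucleus, made in the cytosol and imported, while a small set is encoded in the mitochondrial genome and made on mitochondrial ribosomes. Complex I, the entry point for electrons from NADH, needs dedicated assembly factors, and ubiquinone carries the electrons onward. In liver these steps serve fatty acid oxidation, ketone formation and glucose production during fasting. The comparison of SD with NLD asks whether the photoperiod alters hepatic functions when the microbiota is perturbed.

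The promoters of 8 of the 9 genes were found in the RefSeq promoter table of GRCm38.p6, and none was listed for Ndufaf6. The upstream sequences of 3 genes are shown because they stand at both ends of the expression results: Mrpl50 and Hint2 had the smallest unadjusted p of the 9 genes, and Ndufaf4 was the only one with a mean above NLD. Each run holds the 250 bases before the annotated start in GRCm38.p6, read 5′ to 3′ on the strand of the gene. Capitals mark matches to the searched letters GCATGCGC (NRF1), CCGGAAG (ETS factors such as GABPA), AAGATGGCG (YY1) and GGGCGG (SP1) on either strand. NRF1 and GABPA are known as activators of nuclear genes for respiration.
Mrpl50, chr4:49521084-49521333, minus strand: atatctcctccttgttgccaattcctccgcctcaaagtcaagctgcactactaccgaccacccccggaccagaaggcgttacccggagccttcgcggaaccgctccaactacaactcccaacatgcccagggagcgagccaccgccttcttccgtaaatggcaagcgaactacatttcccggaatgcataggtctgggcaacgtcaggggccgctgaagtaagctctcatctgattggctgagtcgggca
Hint2, chr4:43656446-43656695, minus strand: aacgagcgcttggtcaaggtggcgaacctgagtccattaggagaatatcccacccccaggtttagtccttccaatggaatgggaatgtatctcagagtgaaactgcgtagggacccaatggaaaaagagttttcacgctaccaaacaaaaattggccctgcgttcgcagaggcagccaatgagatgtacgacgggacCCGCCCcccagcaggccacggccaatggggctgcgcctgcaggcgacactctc
Ndufaf4, chr4:24897833-24898082, plus strand: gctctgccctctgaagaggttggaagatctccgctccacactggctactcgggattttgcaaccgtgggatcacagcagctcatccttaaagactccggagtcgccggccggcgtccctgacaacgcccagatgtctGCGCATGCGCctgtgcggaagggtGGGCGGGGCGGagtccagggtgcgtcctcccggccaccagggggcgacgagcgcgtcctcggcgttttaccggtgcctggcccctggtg
In the window of 250 bases before and 50 after the start, the NRF1 letters occurred in 1 of the 8 genes, Ndufaf4, and in 2.7% of all 32851 promoter windows. In Ndufaf4 the matches lay at -111 to -104 on the strand of the gene and at -113 to -106 on the other strand, counted from the start base as 0, so that the palindromic stretch in capitals holds both. A further match on the other strand lay at 1 to 8. The ETS letters were found in 2 genes, Ndufb6 and Stoml2 (8.9% of all windows), the SP1 letters in 6 (35.7% of all windows) and the YY1 letters in 0 (1.4% of all windows). Mrpl50 and Ndufa4 held none of the 4 motifs. The upstream run of Ndufaf4 had a GC content of 66.4% with 23 CpG, that of Mrpl50 57.2% with 16 CpG and that of Hint2 55.6% with 13 CpG, against medians of 52.4% and 6 over all windows. A match of letters is a description of sequence and not a bound site.

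Of the 9 genes, 8 lie on chromosome 4 and Ndufa4 lies on chromosome 6. In the GRCm39 annotation Mrpl50 runs from 49512509 to 49521137 on the minus strand of chromosome 4, and the gene Zfp189 begins 39 bp away on the opposite strand. Ndufa4, at 11897630 to 11907496 on chromosome 6, has Phf14 at 312 bp on the opposite strand. Hint2 spans 43653896 to 43656481 and Stoml2 spans 43026021 to 43031710, both on the minus strand of chromosome 4. The remaining genes of chromosome 4 are Ndufaf6 at 11048820 to 11076236, Coq3 at 21879624 to 21913961, Ndufaf4 at 24898079 to 24905001, Ndufb6 at 40270581 to 40279468 and Tomm5 at 45105208 to 45108131. Coq3 and Ndufaf4 are read on the plus strand and the other genes on the minus strand. The exons of Ndufb6 share 267 bp with Smim27 on the opposite strand, for which 547, 561 and 471 counts were listed in SD and 458, 466 and 626 in NLD. The exons of Hint2 share 401 bp with a long noncoding RNA, Gm68612, that has no row in the table. Whether counting used the strand is not given in the sources used here, so reads of these overlaps cannot be assigned to one gene with certainty.

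The map position matters because the labels name GRCm38 and the methods name GRCm39. Of 21113 protein-coding rows placed in both builds, 535 (2.53%) lay at the same position, and all 9 genes were among them. A count was listed in at least 1 library for 9 of 9 of these genes, for 428 of the 535 shared-position rows (80%) and for 45.8% of the other protein-coding rows. All 9 passed the low-count filter of edgeR, which left 7261 rows, 347 of them at the same position. The total was 5548753 to 6932965 counts per library in SD and 5497797 to 6457190 in NLD. On the first principal component of log2 CPM (30.3% of the variance), SD libraries lay between -44.7 and -13.3, and NLD libraries lay at -14.8, 75 and 27.7, so that NLD replicate 1 stood with SD. Of the hepatocyte markers, 15 of 30 were listed at 0, and Pon1, a paraoxonase that liver secretes, whose position is shared by the builds, had 13000 to 14900 CPM in SD and 15000 to 18500 CPM in NLD (edgeR adjusted p = 0.631). Of the markers of Kupffer cells and of neutrophils, 10 of 10 and 5 of 5 were listed at 0, and all of these lie at other positions in the 2 builds. In bulk liver, fewer cells of a type and less RNA per cell cannot be told apart.

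No gene of the 9 passed an adjusted p of 0.05 in the quasi-likelihood test of edgeR between SD and NLD, and 0 passed it in DESeq2. At an unadjusted p under 0.05 in edgeR, 2 were lower in SD, Mrpl50 and Hint2, and 0 were higher. The background over all rows tested was 0.289% called at the adjusted threshold, 4.02% lower and 4.46% higher at the unadjusted one. Over the rows at the same position it was 0.288%, 5.76% and 7.78%. The log2 fold change, SD over NLD, was below 0 in 8 of the 9 genes and above 0 in Ndufaf4, while 47% of all rows tested and 47% of the rows at the same position had a value below 0. The 95% interval held 0 in 7 genes. The median log2 fold change of the 9 genes was -0.31 (quartiles -0.46 and -0.22), against 0.03 over all rows (quartiles -0.26 and 0.40) and 0.03 over the rows at the same position (quartiles -0.21 and 0.31). Every SD library lay below every NLD library in 3 genes, Stoml2, Mrpl50 and Hint2, and above in 0. The background for these counts was 7.93% below and 9.08% above over all rows, and 8.65% below and 13.5% above over the rows at the same position. For 3 SD against 3 NLD mice the smallest p that an exact permutation test of a gene allows is 0.1.

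**Figure D1:**
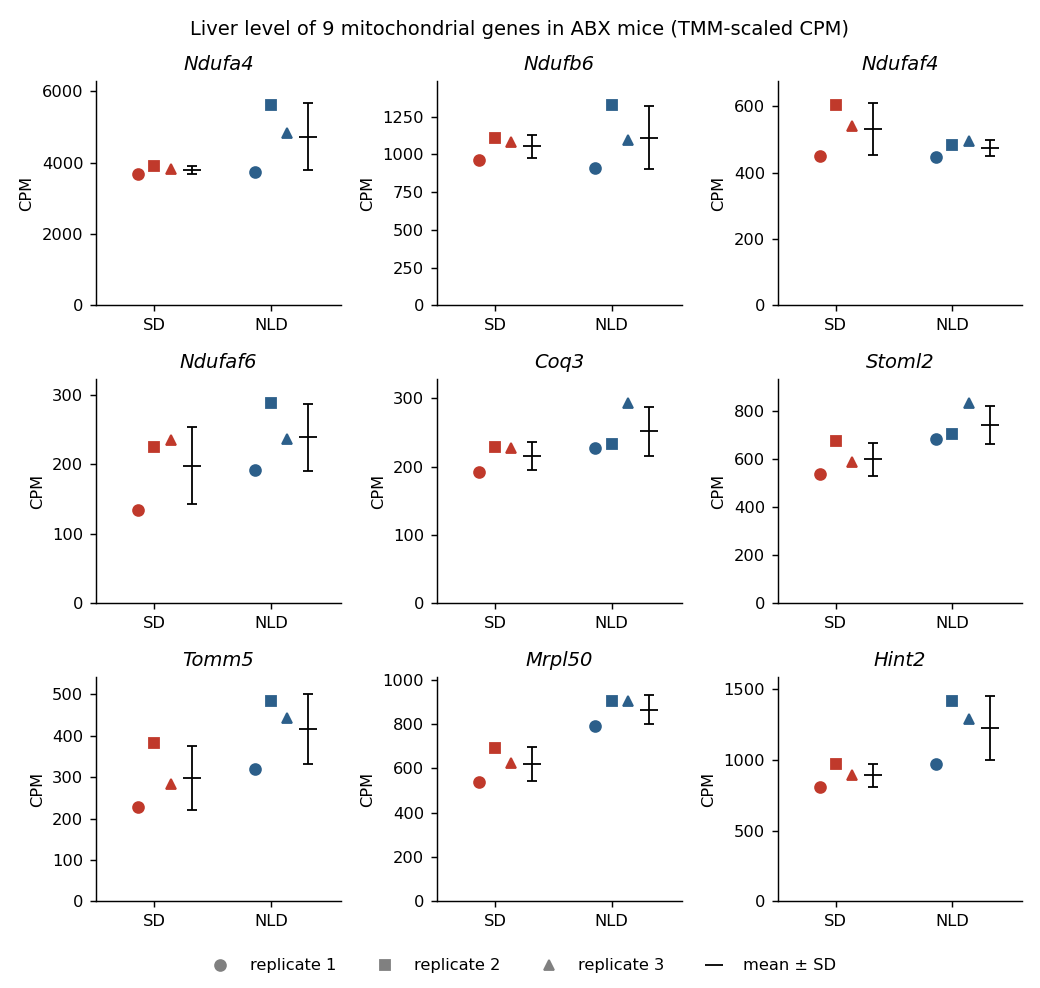
TMM-scaled CPM of the 9 genes in each of 3 SD (red, left) and 3 NLD (blue, right) libraries, with a panel per gene and symbols by replicate; black marks give the mean ± standard deviation. SD and NLD do not overlap in Stoml2, Mrpl50 and Hint2, and Ndufaf4 alone has a higher mean in SD.

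The respiratory subunits in the group are Ndufa4 and Ndufb6. Ndufa4, first described as a complex I subunit and later assigned to cytochrome c oxidase, was the most abundant of the 9 and ranked 29 of the 7261 rows tested by CPM. It had 3692, 3913 and 3813 CPM in SD, against 3752, 5616 and 4831 CPM in NLD. All SD libraries stood close together, and NLD replicate 1 fell among them while NLD replicates 2 and 3 were above all SD libraries. The coefficient of variation was 2.91% in SD and 19.8% in NLD. The mean was 3806 ± 110.9 CPM in SD and 4733 ± 936 CPM in NLD (standard deviation, n = 3 each), with a log2 fold change of -0.31 (SE 0.17, 95% interval -0.71 to 0.08, edgeR adjusted p = 0.641). Leaving out single libraries moved the log2 fold change between -0.46 (without NLD replicate 1) and -0.18 (without NLD replicate 2). In the same order the unadjusted p of the same test was 0.00971 and 0.314, and the adjusted p 0.227 and 0.929.

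Ndufb6, an accessory subunit of the membrane arm of complex I, showed the smallest difference between the groups. Its levels were 963.7, 1108 and 1085 CPM in SD and 910.9, 1326 and 1092 CPM in NLD. The SD values lay wholly within the range of NLD, whose replicate 1 was the lowest and replicate 2 the highest of the 6 libraries. The log2 fold change was -0.08 (SE 0.17, 95% interval -0.47 to 0.32, edgeR adjusted p = 0.91), and it turned to 0.06 without NLD replicate 2. The interval spans both directions, and neither a higher nor a lower level in SD was detectable with these libraries.

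Among the assembly factors of complex I, Ndufaf4 and Ndufaf6 differed in sign. Ndufaf4, a membrane-associated factor of the early assembly steps, had 448.7, 602.9 and 539.9 CPM in SD, against 448.1, 482.8 and 494.2 CPM in NLD. SD replicates 2 and 3 were above all NLD libraries and SD replicate 1 was level with the lowest NLD library. The mean was 530.5 ± 77.53 CPM in SD and 475 ± 24.02 CPM in NLD (standard deviation, n = 3 each), with a log2 fold change of 0.16 (SE 0.15, 95% interval -0.19 to 0.51, edgeR adjusted p = 0.778). Its promoter was the one with the NRF1 letters, and a link between these letters and its level was not tested. Ndufaf6, which is needed for an early membrane module of complex I, had 134.1, 224.6 and 234.2 CPM in SD and 192.1, 288 and 236.5 CPM in NLD. One library, SD replicate 1, stood low, and the other SD libraries fell inside the NLD range. Its log2 fold change was -0.27 (SE 0.26, 95% interval -0.89 to 0.34, edgeR adjusted p = 0.785), and it was -0.06 without SD replicate 1.

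Coq3 encodes the O-methyltransferase of ubiquinone synthesis. It had 192, 227.9 and 226.9 CPM in SD, against 227.7, 233.5 and 292.8 CPM in NLD. The groups met at a single point, where SD replicate 2 exceeded NLD replicate 1 by 0.152 CPM, and NLD replicate 3 stood above the rest. The mean was 215.6 ± 20.44 CPM in SD and 251.3 ± 36.06 CPM in NLD (standard deviation, n = 3 each), with a log2 fold change of -0.22 (SE 0.15, 95% interval -0.59 to 0.15, edgeR adjusted p = 0.704). Without NLD replicate 3 it was -0.10. With RLE in place of TMM factors the groups of Coq3 no longer overlapped.

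Stoml2 and Tomm5 act in the membranes. Stoml2, a stomatin-like protein that binds cardiolipin and organizes the inner membrane with prohibitins, had 538.2, 674.2 and 587.9 CPM in SD, against 685.9, 705.9 and 833.6 CPM in NLD. The groups did not overlap, but the gap between SD replicate 2 and NLD replicate 1 was 11.7 CPM, or 1.58% of the NLD mean, and the groups overlapped when libraries were scaled by their totals alone. Its log2 fold change was -0.31 (SE 0.14, 95% interval -0.65 to 0.04, edgeR adjusted p = 0.616). Tomm5, a small subunit of the translocase through which proteins cross the outer membrane, had 228.6, 381.8 and 282.8 CPM in SD and 320.4, 483.6 and 443.2 CPM in NLD. SD replicate 2 lay above NLD replicate 1, and the other SD libraries lay below all NLD libraries. The mean was 297.7 ± 77.67 CPM in SD and 415.8 ± 85.04 CPM in NLD (standard deviation, n = 3 each). Its log2 fold change of -0.48 was as large as that of Mrpl50, but its spread was wider (SE 0.24, 95% interval -1.06 to 0.10, edgeR adjusted p = 0.629). Leaving out single libraries moved it between -0.71 (without SD replicate 2) and -0.32 (without SD replicate 1).

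The widest gap between the groups was in Mrpl50, a protein of the large subunit of the mitochondrial ribosome. Its counts were 3188, 4719 and 4073 in SD and 4588, 5396 and 5448 in NLD, or 539.8, 692.9 and 621.9 CPM against 788.5, 902.4 and 903.4 CPM after scaling. Every SD library was below every NLD library, and the gap of 95.6 CPM was 11.1% of the NLD mean. The mean was 618.2 ± 76.62 CPM in SD and 864.8 ± 66.04 CPM in NLD (standard deviation, n = 3 each), which is 0.715 times the NLD level. The log2 fold change was -0.48 (SE 0.14, 95% interval -0.82 to -0.15), the unadjusted p of the edgeR test was 0.0119 and the adjusted p was 0.441, so the difference did not pass the correction over all rows. Its counts come from a gene 39 bp from its neighbour Zfp189, and the share of reads that could run between them was not tested.

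Hint2 encodes a histidine triad hydrolase of mitochondria that is abundant in liver. It had 810.3, 972.6 and 892.3 CPM in SD, against 974.8, 1418 and 1290 CPM in NLD. The groups were separate by only 2.25 CPM, 0.183% of the NLD mean, because NLD replicate 1 lay next to SD replicate 2. The mean was 891.8 ± 81.13 CPM in SD and 1227 ± 227.9 CPM in NLD (standard deviation, n = 3 each), 0.727 times the NLD level. The log2 fold change was -0.46 (SE 0.17, 95% interval -0.87 to -0.05), with an unadjusted p of 0.0332 and an adjusted p of 0.578 in edgeR. It was -0.60 without NLD replicate 1 and -0.35 without NLD replicate 2, and the groups overlapped once NLD replicate 2 or 3 was left out and the scaling refitted.

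**Figure D2:**
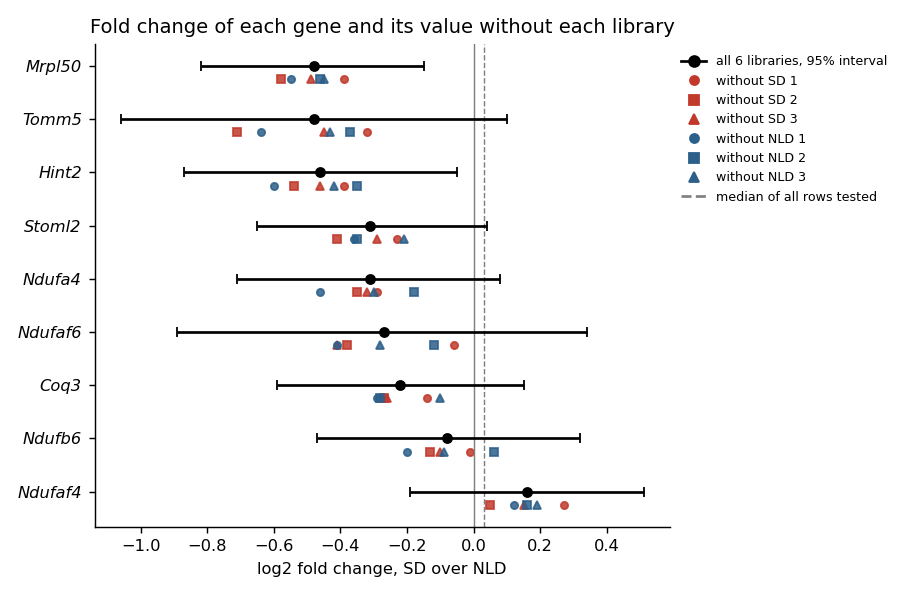
Log2 fold change, SD over NLD, of each gene with its 95% interval (black, 6 libraries) and after leaving out each library in turn (red for SD, blue for NLD); the dashed line is the median of all rows tested, 0.03. The intervals of Mrpl50 and Hint2 end below 0, and the only sign change is that of Ndufb6 without NLD replicate 2.

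The libraries differed in how much they contributed to this pattern. Relative to the NLD mean of each gene, 9 of 9 genes were lower in SD replicate 1, 8 in SD replicate 2 and 8 in SD replicate 3, and the medians of these log2 differences were -0.46, -0.14 and -0.31. In NLD replicate 1, however, 9 of 9 genes were also below the NLD mean, with a median of -0.28. Of all rows 49.7% were below it in that library, and of the rows at the same position 54.2%. In each of NLD replicates 2 and 3, 2 of the 9 genes were below it (medians 0.21 and 0.06). For the rows at the same position the corresponding medians all lay between -0.04 and 0.04. SD replicate 1 was the lowest of the 6 libraries in 7 genes (77.8%, against 21.2% of all rows and 22.5% of the rows at the same position). NLD replicate 1 was the lowest in the other 2 genes, Ndufb6 and Ndufaf4 (22.2%, against 14.5% of all rows and 15.6% of the rows at the same position). These 2 libraries also had the smallest totals (5548753 and 5497797 counts) and the largest TMM factors (1.07 and 1.06), and the part of depth in the result was not tested. Without NLD replicate 1, every SD library lay below every NLD library in 7 genes, all but Ndufb6 and Ndufaf4, and 4 genes were lower at an unadjusted p under 0.05 (Ndufa4, Tomm5, Mrpl50 and Hint2). In that fit of 3 against 2 libraries the background over all rows was 17.6% below and 6.74% lower at the unadjusted threshold, both above the shares with 6 libraries. Without SD replicate 2 these counts were 5 and 4, with the 4 being Stoml2, Tomm5, Mrpl50 and Hint2, beside 14.7% and 4.67% of all rows. Without SD replicate 1, SD replicate 3, NLD replicate 2 or NLD replicate 3, 1 gene was lower at that threshold, Mrpl50 in each case, so that Hint2 passed it only with those 4 libraries in the fit. The background lower at that threshold was 2.69%, 2.31%, 2.49% and 2.34% of all rows in these 4 fits.

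**Figure D3:**
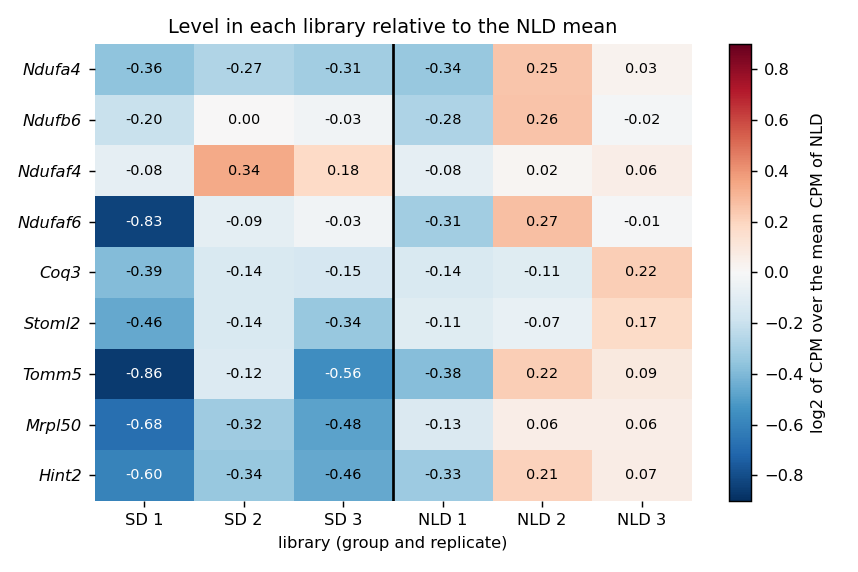
Log2 of the CPM in each library over the mean CPM of NLD, with genes in rows and the SD libraries left of the NLD libraries; blue is below and red above the NLD mean. SD replicate 1 and NLD replicate 1 are below the NLD mean in 9 of 9 genes, and NLD replicate 2 is above it in 7.

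Levels between genes were compared per kilobase of annotated exon. Ndufa4 averaged 493 CPM per kb over the 6 libraries (range 427 to 649), Hint2 443 (339 to 592), Mrpl50 311 (227 to 379), Tomm5 286 (183 to 387) and Ndufb6 275 (232 to 338). Stoml2 at 132 and Ndufaf4 at 129 CPM per kb formed a middle pair, and Ndufaf6 at 33.6 and Coq3 at 28 CPM per kb a low one. The ranges of neighbours in this order overlapped except between Ndufb6 and Stoml2 and between Ndufaf4 and Ndufaf6, so that 3 tiers could be told apart by range. The exon length joins all annotated transcripts of a gene (1249 bp in Tomm5 to 8652 bp in Ndufa4) and understates the level of a gene whose liver transcript is short.

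**Figure D4:**
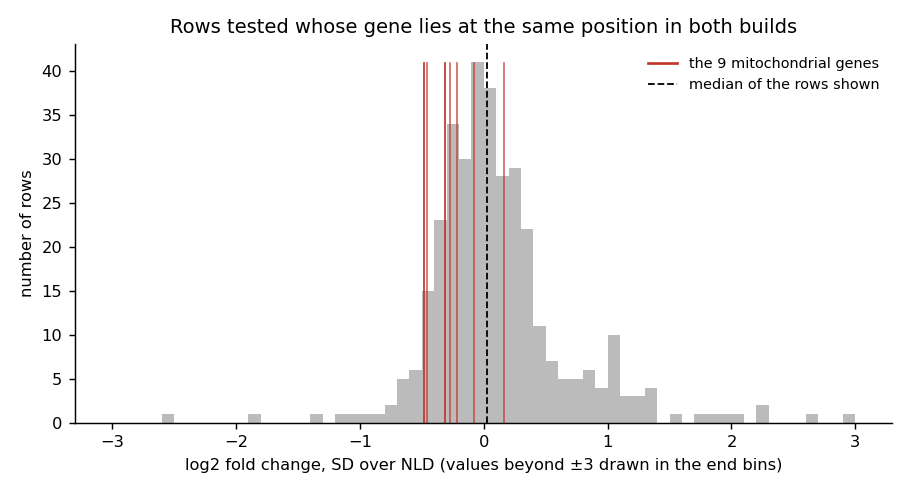
Number of rows by log2 fold change, SD over NLD, for the 347 rows tested with an unmoved position between the builds (grey bars, 0.1 wide; 1 row beyond 3 is drawn in an end bin), with a red line for each of the 9 genes, some of which coincide. The 8 genes below 0 lie between -0.48 and -0.08, and all of them but Ndufb6 lie below the lower quartile of the rows shown, -0.21. The dashed median is 0.03.

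Other genes of these pathways gave little to set beside the 9, since most of them lie at other positions in the 2 builds and a row there may not stand for the gene it names. Lists of 265 mitochondrial genes had 250 rows, of which 134 were listed at 0 in every library and 61 were tested, the 9 genes included. None was called at an adjusted p under 0.05 in edgeR. At an unadjusted p under 0.05 4 were lower in SD, Mrpl50 and Hint2 among them, and 0 higher, beside 4.02% and 4.46% of all rows. The median log2 fold change of the 61 was -0.12, with 40 below 0, beside 47% of all rows. These 40 include 8 of the 9 genes, and the counts by role that follow also include the 9. By role, 3 of 8 complex I subunits, 2 of 4 complex I assembly factors, 6 of 8 subunits of complexes II to V (with cytochrome c), 5 of 7 ubiquinone synthesis genes, 7 of 9 import and scaffold genes, 13 of 21 mitochondrial ribosome genes, 2 of 2 histidine triad genes and 2 of 2 regulators of biogenesis had a value below 0. Their medians ran over 0.07, -0.04, -0.17, -0.22, -0.31, -0.12, -0.54 and -0.08 in the same order. Beside the 9 genes, 2 of the tested list genes lay at the same position. Ndufa5, a subunit of the peripheral arm of complex I, had 1020, 1100 and 982 CPM in SD and 828, 0 and 1120 CPM in NLD, where the row was listed at 0 in replicate 2 (edgeR adjusted p = 0.924). Nrf1, the activator named above, had 98.9, 120 and 93.6 CPM in SD and 115, 88 and 119 CPM in NLD, with a log2 fold change of -0.04 (SE 0.18, edgeR adjusted p = 0.958). The 37 rows of the mitochondrial genome, which hold the protein genes of some respiratory subunits beside tRNA and rRNA genes, had a count in 0 libraries, so that no level of mitochondrially encoded subunits could be given.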

How the data were processed

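Hepatic RNA-seq libraries of 3 SD and 3 NLD mice were compared. The deposited values are whole numbers per gene without normalization, and they were fitted here as counts. The authors' methods name fastp, HISAT2, Samtools, StringTie and GRCm39, while GRCm38 and mm10 stand in the processing notes of the submitters. The labels and the methods also differ in the RNA extraction kit. How StringTie output became counts, and whether strand was used, is not given in the sources used here. Counts of 4 were more frequent in each library than counts of 1, 2, 3 or 5, so low counts are no tally of reads.

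All 6 libraries were fitted over the whole table with edgeR 4.0.16 under R 4.3.3. TMM factors, filterByExpr, robust glmQLFit and a two-sided glmQLFTest on group were used, with Benjamini-Hochberg adjustment over 7261 rows. CPM are counts scaled by TMM. The SE is the log2 fold change divided by the root of F, and the 95% interval uses the t distribution of the fit. DESeq2 1.42.0, other scalings and filters, a replicate block and each library left out were alternatives. The fit was tested on simulated data. The 9 genes, the gene lists, the markers and the motifs were chosen with earlier results of these data known, and every one of the 9 is named. Values without single libraries, their backgrounds and gaps between groups were added after seeing the data.

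Positions were compared between the GRCm39 annotation (54749 of 55357 rows matched by gene ID) and RefSeq genes of GRCm38.p6 (by symbol). A position counted as the same if it differed by no more than 2000 bp for the row itself and 10 bp for the median of 11 neighbours. The smaller difference of the 2 gene ends was used in place of the start alone, a choice made after seeing the data. Promoters are from RefSeq, GRCm38.p6. No library repeated the counts of another (chi-square per row 21.5 to 42.4 within groups), and each was used as 1 replicate. The labels number the replicates. The p-values set the difference between the groups against the spread between these libraries, which the fit estimates for each row with information from the other rows.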

Additional observations from a re-analysis of the deposited data

How the results depend on the processing

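Under 17 alternatives, 152 of 153 log2 fold changes of the 9 genes kept their direction and their side of the adjusted threshold, and the exception was Ndufb6 without NLD replicate 2 (0.06). Over single libraries left out, that of Ndufb6 ran from -0.2 to 0.06. None of the 9 was called under any of them. The lowest adjusted p was 0.0543, for Mrpl50 in DESeq2 with the same filter, and over the 17 alternatives its adjusted p ran from 0.0543 to 0.887. The log2 fold change of Mrpl50 ran from -0.58 to -0.39, that of Hint2 from -0.60 to -0.35, that of Ndufaf4 from 0.05 to 0.27, and the median of the 9 genes from -0.41 to -0.23. Leaving out single libraries, the genes lower at an unadjusted p under 0.05 numbered 1 to 4 (2.31% to 6.74% of all rows tested), those with every SD library below every NLD library 2 to 7 (10.9% to 17.6% of all rows), and those with every SD library above 0 to 1 (12.5% to 20.6% of all rows). Scaling by library totals alone also put SD above NLD in 1 gene, Ndufaf4 (8.79% of all rows). The count of rows called over the whole table was 21, against 44 with no filter, 137 in DESeq2 with the same filter, 89 in DESeq2 with no filter and 0 to 30 with a library left out (0 without any 1 of the SD libraries). The cause of these differences was not tested.

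Whether the replicate numbers pair the mice is not given in the sources used here. Deviations of same-numbered libraries correlated at 0.08, 0.07 and 0.04, and each SD library correlated best with its own number. These correlations cannot decide it, since they were small yet highest for the same number. With the replicate block 0 rows were called, none of the 9 genes among them, and 3 of the 9 were lower at an unadjusted p under 0.05, as were 5% of all rows.

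The 9 genes had 792 to 33582 counts per library, and 3 mice per group limit the tests. Rows of genes that lie elsewhere in the other build were counted but not described singly.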
